A study of Mus musculus with 12 samples.

Results

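Zscan4 genes encode proteins with a SCAN domain and zinc fingers and lie as a cluster of near-identical copies on mouse chromosome 7. Their RNA is known from the two-cell embryo and, in embryonic stem (ES) cell cultures, from a small and changing fraction of cells that pass through a state like it, where ZSCAN4 is tied to telomere lengthening by recombination and to genome stability. Zscan4d is described as the main copy of the embryo and Zscan4c as the main copy of ES cells, and retinoic acid is known to increase the share of Zscan4-positive cells in ES cultures. The members were taken by name, as every gene of the deposited expression table whose symbol starts with Zscan4. These were 5 of the 17901 genes, namely Zscan4a, Zscan4b, Zscan4c, Zscan4d and Zscan4f. All 5 passed the filter on low values. Another 4 Zscan4 genes that RefSeq lists were not analysed here.

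RNA of TT2 cells, a mouse ES cell line, was sequenced in 12 libraries that form 4 groups of 3. DKO cells, which carry a double knockout of Rlf and Zfp292, and wild-type (WT) cells were each grown for 72 h without LIF in 5 µM retinoic acid (RA), or kept as undifferentiated cells in the ES medium with LIF that the study calls Serum/LIF. Both genotypes thus share the cell line, the media and the dose. Libraries are labelled as biological replicates, but the labels do not say whether the DKO libraries stem from 1 clone or several, so p-values measure the spread between these libraries, which may be partly technical. RLF and ZFP292 are related zinc finger proteins, and the study's title ties them to bivalent genes and the CoREST complex, a chromatin complex with histone deacetylase and demethylase subunits.

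Values are the authors' normalized counts, that is, reads divided by a size factor of each library, and each was a whole number of reads once multiplied back. Depth was 30869766 to 40236799 reads in genes per library. Rlf had 1 read in DKO cells after RA against 8426 in WT cells after RA, and 6 in DKO cells in serum/LIF against 10999 in WT cells in serum/LIF, summed over the 3 libraries of each group. Zfp292 had 0 reads in both DKO groups, against 10237 in WT cells after RA and 14965 in WT cells in serum/LIF. The genotype labels and the counts thus matched. Replicate 2 of WT after RA stood apart, with 41.7% of its reads in repeats assigned to rRNA-class elements against 4.14% to 7.28% in the other libraries, and the main counts that rest on it are also given without it. Summed levels of 9 ES cell markers such as Pou5f1, Nanog and Sox2 were 11227 to 11976 in DKO and 5688 to 6148 in WT after RA, and 127932 to 132065 in DKO and 141091 to 145545 in WT in serum/LIF.

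On mm10 the copies span 608 kb of chromosome 7. Zscan4a, which RefSeq annotates as a transcribed pseudogene, lies on the minus strand at chr7:10794241-10799065. Zscan4b follows on the minus strand at chr7:10900740-10905050, Zscan4c on the plus strand at chr7:11005745-11010547, Zscan4d on the minus strand at chr7:11161643-11166148 and Zscan4f on the plus strand at chr7:11397915-11402318. Their transcripts were 96.8% to 99.6% identical in pairwise alignment, lowest between Zscan4b and Zscan4d and highest between Zscan4c and Zscan4f, which differed at 7 of 1806 aligned bases. Libraries were read in 150-base reads, and the share of 150-base windows of a transcript found in no other Zscan4 gene was 87.0% for Zscan4d, 74.9% for Zscan4a, 39.0% for Zscan4c, 31.8% for Zscan4b and 13.8% for Zscan4f. How reads that map to several places were counted is not given in the sources used here. Levels of single copies are therefore uncertain, least so for Zscan4d and Zscan4a, and the sum over the 5 copies is the safer measure.

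The start regions of the copies are nearly the same sequence and are shown here as a description. The copies moved in the same direction in each pairwise comparison below. Whether the start regions, or reads assigned uncertainly between near-identical transcripts, have a part in this was not tested. Promoter windows of 250 bases before to 50 bases after the start site were found for 4 copies in the RefSeq table of build GRCm38.p6, and Zscan4a had no entry. They were 95.3% to 99.3% identical. The windows of Zscan4c (chr7:11005495-11005794, plus strand) and Zscan4d (chr7:11166099-11166398, minus strand), the copies with the highest levels below, are printed 5′ to 3′. Capitals mark TATAAA and the nuclear receptor half-site letters AGGTCA, here as their reverse complement TGACCT.
Zscan4c: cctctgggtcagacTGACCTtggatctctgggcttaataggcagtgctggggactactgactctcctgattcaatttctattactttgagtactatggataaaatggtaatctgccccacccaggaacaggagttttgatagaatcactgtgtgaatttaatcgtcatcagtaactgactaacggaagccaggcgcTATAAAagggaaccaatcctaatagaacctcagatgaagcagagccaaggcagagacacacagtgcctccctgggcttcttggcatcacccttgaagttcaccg
Zscan4d: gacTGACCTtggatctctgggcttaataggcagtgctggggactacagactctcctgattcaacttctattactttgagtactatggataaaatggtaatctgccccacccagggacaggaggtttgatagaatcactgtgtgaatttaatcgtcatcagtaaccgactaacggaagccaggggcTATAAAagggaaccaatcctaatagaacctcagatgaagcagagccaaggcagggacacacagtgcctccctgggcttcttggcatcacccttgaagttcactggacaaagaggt
The 42 bases around TATAAA are set side by side for the 4 copies, with TATAAA in capitals.
Zscan4b: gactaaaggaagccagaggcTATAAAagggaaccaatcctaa
Zscan4c: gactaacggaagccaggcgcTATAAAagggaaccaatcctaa
Zscan4d: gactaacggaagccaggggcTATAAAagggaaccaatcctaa
Zscan4f: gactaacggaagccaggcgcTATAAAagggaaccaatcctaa
These cores lie at chr7:10905060-10905101 for Zscan4b, chr7:11005671-11005712 for Zscan4c, chr7:11166192-11166233 for Zscan4d and chr7:11397864-11397905 for Zscan4f. Counted from 1 at the 5′ end of the core, with the base of Zscan4c first, Zscan4d had the substitution C18G, Zscan4b had C7A, G17A and C18G, and Zscan4f had none.

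The letter patterns were searched on both strands, none overlapping another. TATAAA was present in 4 of 4 windows, beginning 31 bases before the annotated start in Zscan4b and Zscan4f, 54 in Zscan4c and 65 in Zscan4d, and in 13.6% of all 32851 promoter windows. CCAAT stood in the same core in 4 of 4 windows, against 37.4% of all windows. The half-site letters AGGTCA, which retinoic acid receptors and other nuclear receptors can bind, were in 4 of 4 windows on the minus strand, with one more on the plus strand of Zscan4b, against 16.3% of all windows. The palindrome known from DUX binding sites, TGATT and AATCA with 1 base between them, was in 0 of 4 windows and in 11 of the 32851. A match of letters describes the sequence and is not a binding site. The 4 windows are nearly the same sequence, so a match in 4 of 4 is not 4 separate findings. The shares of all windows are given as background and test nothing.

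In the 4 groups the copies spanned the range from 0 reads to 1225 normalized counts in a library. The summed Zscan4 level was 81.5, 91.8 and 80.5 in the DKO libraries after RA, against 3941, 3999 and 3835 in the WT libraries after RA. In serum/LIF it was 9.17, 4.69 and 9.01 in DKO cells, against 182, 221 and 188 in WT cells. The 4 groups did not overlap, a trait that was not counted over all genes. Their order was WT after RA, WT in serum/LIF, DKO after RA and DKO in serum/LIF. Means were 84.6 ± 6.26 in DKO and 3925 ± 82.9 in WT after RA, and 7.63 ± 2.54 in DKO and 197 ± 21.1 in WT in serum/LIF (SD, n = 3 each). Behind these means stood 276 reads in DKO and 12636 in WT after RA, and 20 in DKO and 598 in WT in serum/LIF. In bulk RNA, fewer Zscan4-expressing cells and less Zscan4 RNA per cell cannot be told apart.

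Among genes with 1 to 20 reads, 80.1% to 84.1% of counts were even in each library, as were 17 of the 19 counts of single copies in that range. Both mates of a read pair may have been counted, and intervals over fragments would be wider than those over reads. Intervals with all reads halved are therefore given beside those over reads where they matter.

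**Figure D1:**
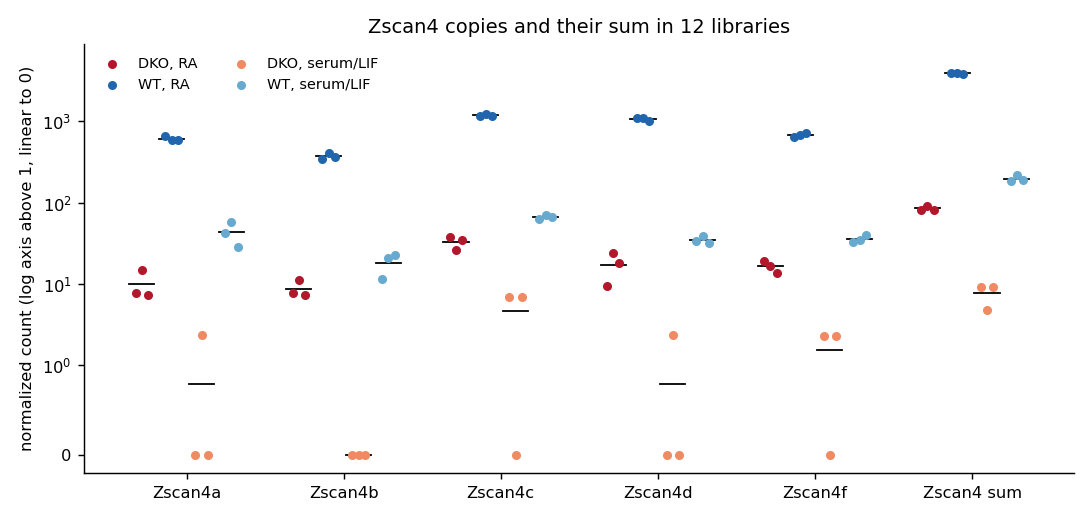
Normalized count of each Zscan4 copy and of their sum in the 12 libraries, on an axis that is logarithmic above 1 and linear down to 0. Points are libraries and bars are group means. For the sum, DKO libraries lie at 80.5 to 91.8 after RA and at 4.69 to 9.17 in serum/LIF, below all WT libraries of either medium.

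After RA, Zscan4 RNA was lower in DKO than in WT cells for every copy. The sum was 46.3-fold lower in DKO cells, with a counting interval (exact, 95%) of 41.1 to 52.4, or 39.2 to 55.3 with reads halved. Its fitted log2 fold change on the log2(value + 1) scale was -5.52 ± 0.18 (SE; limma, Benjamini-Hochberg adjusted p = 7.84e-17). All 5 copies were called lower at an adjusted p under 0.05. Of the 15750 tested genes, 20.7% were called lower in this comparison, 22% higher and 42.7% in either direction. Without replicate 2 of WT after RA the log2 fold change of the sum was -5.51, and all 5 copies were again called lower.

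Zscan4d, the copy with the most distinct transcript, had 9.48, 23.9 and 17.9 normalized counts in DKO libraries after RA, against 1107, 1103 and 998.6 in WT libraries after RA. Zscan4c had 37.9, 25.7 and 34.9 in DKO cells, against 1180, 1225 and 1154 in WT cells. For both copies the lowest WT library was far above the highest DKO library. Zscan4d was 62.2-fold lower in DKO cells (counting interval 47.8 to 82.5) and Zscan4c 36.1-fold lower (29.8 to 44.2), and with reads halved the intervals of 42.9 to 93.9 and 27.5 to 48.3 overlapped. On the log2 scale limma gave -5.97 ± 0.42 for Zscan4d (adjusted p = 3.55e-11) and -5.15 ± 0.60 for Zscan4c (adjusted p = 1.89e-05).

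Zscan4f had 18.96, 16.5 and 13.4 normalized counts in DKO libraries after RA, against 651, 677 and 721 in WT libraries. The pseudogene Zscan4a had 7.58, 14.7 and 7.16 in DKO cells, against 657, 585 and 598 in WT cells. Zscan4b, the copy with the lowest level per length in WT cells, had 7.58, 11.02 and 7.16 in DKO cells, against 347, 408 and 364 in WT cells. In none of these 3 copies did the genotypes overlap, which was not counted over all genes. Fold differences were 42.1 for Zscan4f (32.0 to 56.3), 62.6 for Zscan4a (44.2 to 91.7) and 43.3 for Zscan4b (29.8 to 65.5), each lower in DKO cells. The authors' deposited table lists log2 fold changes of -5.97 for Zscan4a, -5.44 for Zscan4b, -5.18 for Zscan4c, -5.96 for Zscan4d and -5.39 for Zscan4f in this comparison.

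In serum/LIF the copies were lower in DKO cells too, at far fewer reads. The sum was 25.6-fold lower in DKO cells (counting interval 16.4 to 42.3, and 13.7 to 54.0 with reads halved), with a log2 fold change of -4.57 ± 0.18 (limma, adjusted p = 2.23e-15). All 5 copies were called lower, where 15.4% of tested genes were called lower, 17.8% higher and 33.2% in either direction.

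Zscan4c had 6.88, 0 and 6.76 normalized counts in the DKO libraries in serum/LIF, against 63.0, 69.8 and 65.5 in the WT libraries. Zscan4f had 2.29, 0 and 2.25 in DKO cells, against 32.5, 34.4 and 40.2 in WT cells. Replicate 2 of the DKO group was thus the library without a read of either copy. It was also the only DKO library in serum/LIF with reads of Zscan4a, at 2.35 against 42.0, 58.0 and 28.1 in WT cells, and of Zscan4d, at 2.35 against 33.4, 38.7 and 31.8 in WT cells. Zscan4b had 0 reads in the 3 DKO libraries and 11.5, 20.4 and 22.4 normalized counts in WT libraries. None of the copies overlapped between genotypes, and how often other genes did was not counted.

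In reads, the DKO group in serum/LIF held 12 of Zscan4c, 4 of Zscan4f, 2 each of Zscan4a and Zscan4d, and 0 of Zscan4b. Fold differences were 14.4 for Zscan4c (8.04 to 28.3) and 23.4 for Zscan4f (8.87 to 87.3), lower in DKO cells. With 2 reads in the group, the ratio was 54.9 for Zscan4a (14.9 to 458) and 45.0 for Zscan4d (12.2 to 376). Zscan4b was at least 15.7-fold lower in DKO cells, taking 3 counts over the group in place of 0. Fitted log2 fold changes ran from -4.81 ± 0.45 for Zscan4a (limma, adjusted p = 6.81e-09) to -4.05 ± 0.39 for Zscan4f (adjusted p = 1.20e-08), and at such counts they depend on the value added before the logarithm.

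RA treatment was accompanied by more Zscan4 RNA in both genotypes. The RA groups were also without LIF for 72 h, so RA, LIF withdrawal and differentiation cannot be told apart. RA here stands for the whole change of medium. In WT cells the sum was 19.99-fold higher after RA than in serum/LIF (counting interval 18.4 to 21.7), a log2 fold change of 4.31 ± 0.18 (limma, adjusted p = 1.35e-16). All 5 copies were called higher, where 41.4% of tested genes were called higher, 39.2% lower and 80.6% in either direction, so a call alone says little in this comparison and the size carries the result. Zscan4d was 31.0-fold higher after RA in WT cells (25.5 to 38.0) and Zscan4a 14.6-fold (12.2 to 17.6), with Zscan4b at 20.6 (15.7 to 27.5), Zscan4f at 19.1 (15.8 to 23.4) and Zscan4c at 18.0 (15.6 to 20.8) between them. The interval of Zscan4d lay above those of Zscan4a, Zscan4c and Zscan4f, and with reads halved, at 23.6 to 41.6, still above those of Zscan4a (11.3 to 19.1) and Zscan4c (14.7 to 22.2). These intervals cover counting error and leave out the spread between libraries. With that spread, limma gave log2 fold changes of 4.91 ± 0.42 for Zscan4d, 4.15 ± 0.60 for Zscan4c and 3.87 ± 0.45 for Zscan4a (SE). Differences between copies were not tested.

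DKO cells also had more Zscan4 RNA after RA than in serum/LIF. The sum was 11.1-fold higher (counting interval 7.02 to 18.4, and 5.83 to 23.6 with reads halved), a log2 fold change of 3.36 ± 0.18 (limma, adjusted p = 2.49e-14), and all 5 copies were called higher, where 40.2% of tested genes were called higher, 38.2% lower and 78.3% in either direction. Zscan4c was 7.14-fold higher after RA in DKO cells (3.92 to 14.3), Zscan4f 10.6-fold (3.91 to 40.4), and Zscan4b at least 7.48-fold, with 3 counts in place of 0 in serum/LIF. Zscan4a and Zscan4d, with 2 reads each in serum/LIF, had ratios of 12.8 (3.27 to 110) and 22.4 (5.93 to 190). RA-treated DKO cells nevertheless stayed below untreated WT cells. Every copy was lower in each DKO library after RA than in each WT library in serum/LIF. For Zscan4b, replicate 2 of DKO after RA (11.02) and replicate 1 of WT in serum/LIF (11.5) held 12 reads each. Their gap came from the size factors alone. DKO after RA and WT in serum/LIF differ in both genotype and medium and were not tested against each other.

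**Figure D2:**
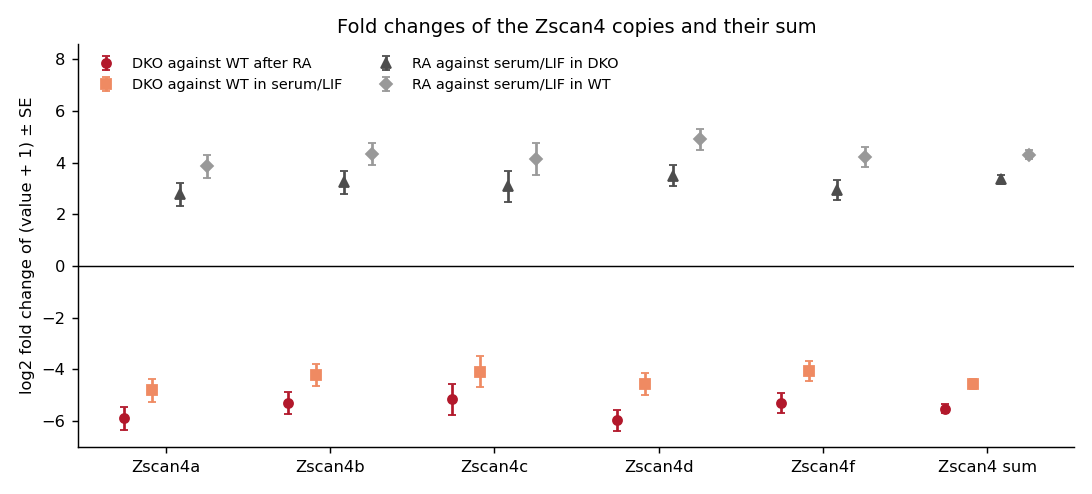
Log2 fold change of (value + 1) with its SE from limma, for each copy and the sum in 4 comparisons, DKO against WT and RA against serum/LIF. Every genotype difference lies below 0 and every RA difference above 0, and the sum stood at -5.52 for DKO against WT after RA and at -4.57 in serum/LIF.

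The genotype difference of the sum was larger after RA than in serum/LIF. The interaction, the log2 fold change of DKO against WT after RA minus that in serum/LIF, was -0.96 ± 0.26 (limma, adjusted p = 0.00692), where 14.8% of tested genes were called positive, 16% negative and 30.8% in either direction. With edgeR on the recovered reads it was -0.88 with an adjusted p of 0.0633 and so missed the threshold. The 95% counting intervals of the 2 folds, 41.1 to 52.4 after RA and 16.4 to 42.3 in serum/LIF, overlapped slightly, and with reads halved, at 39.2 to 55.3 after RA and 13.7 to 54.0 in serum/LIF, they overlapped over most of the interval after RA. None of the 5 copies was called for the interaction by limma, and 2 of them, Zscan4d at -1.40 ± 0.59 and Zscan4f at -1.27 ± 0.55, had an unadjusted p under 0.05 (adjusted p = 0.0731 and 0.0844). edgeR called 0 copies, with 1 under an unadjusted 0.05, and DESeq2 called 1, Zscan4c at -1.33 (adjusted p = 0.0183). With 5 in place of 1 added before the logarithm, limma called all 5 copies, with Zscan4d at -2.86 and Zscan4f at -2.36 (adjusted p = 1.10e-06 and 6.68e-06), so the copies' interaction depends on the added value.

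Levels of different copies were compared per kb of transcript. In WT cells after RA, Zscan4c stood at 521 ± 15.9 normalized counts per kb, Zscan4d at 471 ± 27.0, Zscan4f at 374 ± 19.4, Zscan4a at 269 ± 16.8 and Zscan4b at 213 ± 18.1 (SD, n = 3 each). Libraries of neighbours in this order did not overlap. In WT cells in serum/LIF, Zscan4c was again first at 29.0 ± 1.52 per kb and Zscan4b last at 10.3 ± 3.33, while Zscan4f at 19.5 ± 2.21, Zscan4a at 18.7 ± 6.58 and Zscan4d at 15.2 ± 1.58 lay between them with neighbours that overlapped. DKO cells after RA had 14.4 for Zscan4c, 8.91 for Zscan4f, 7.52 for Zscan4d, 4.90 for Zscan4b and 4.31 for Zscan4a per kb, and in serum/LIF Zscan4c was first at 2.00. Zscan4c thus had the highest mean per kb in all 4 groups. These levels were divided by the full transcript length. The share of distinct 150-base windows differed between copies, from 13.8% for Zscan4f to 87.0% for Zscan4d. How reads that map to several places were counted is not given. The order of the copies is therefore uncertain, and the lack of overlap between libraries does not settle it.

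**Figure D3:**
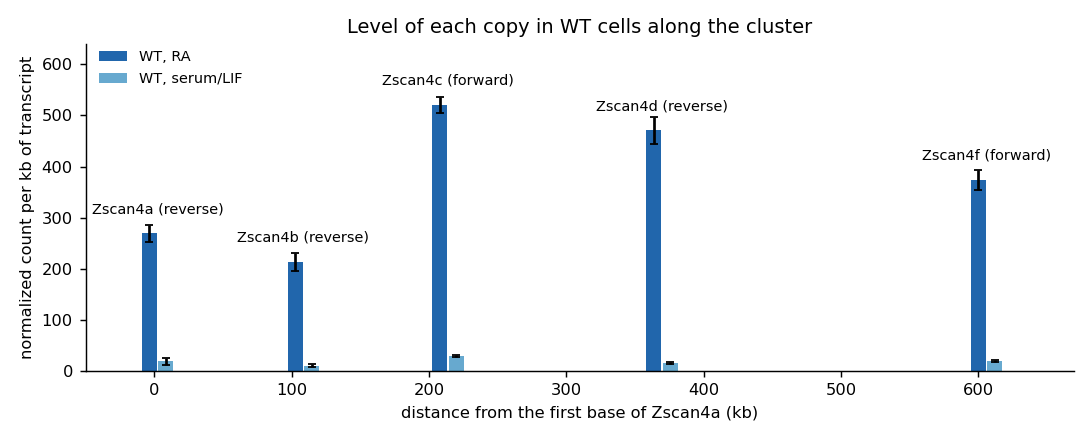
Mean normalized count per kb of transcript of each copy in WT cells, placed by its distance in kb from the first base of Zscan4a, with SD over 3 libraries and the strand in brackets. After RA the copies stand at 213 to 521 per kb, against 10.3 to 29.0 in serum/LIF.

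The split of the Zscan4 reads between copies was compared between the media in WT cells. Zscan4d took 27.2% ± 1.07 of them after RA, against 17.6% ± 0.71 in serum/LIF (SD, n = 3 each), and the libraries did not overlap, at 26.0% to 28.1% against 16.9% to 18.3%. The difference of 9.66 percentage points had p = 0.1 in an exact two-sided permutation test, the smallest that 3 against 3 libraries can give (0.25 adjusted over the 5 copies), so this test cannot call it at this number of libraries. Zscan4c took 30.2% ± 0.37 after RA and 33.6% ± 1.82 in serum/LIF, likewise without overlap (exact p = 0.1). Zscan4a took 15.6% after RA and 21.4% in serum/LIF, Zscan4f 17.4% and 18.2%, and Zscan4b 9.50% and 9.15%, all with libraries that overlapped.

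In DKO cells after RA, the 276 reads were split as 38.8% Zscan4c (exact binomial interval 33.0% to 44.8%), 20.3% Zscan4d (15.7% to 25.5%), 19.2% Zscan4f, 11.6% Zscan4a and 10.1% Zscan4b. In the pooled WT reads after RA, Zscan4c was 30.2% (29.4% to 31.0%) and Zscan4d 27.2% (26.5% to 28.0%), outside the DKO intervals; with reads halved the DKO interval of Zscan4d, 14.0% to 28.2%, held the WT share. The DKO libraries were not alike: Zscan4d took 11.6%, 26.0% and 22.2% of their reads and Zscan4c 46.5%, 28.0% and 43.3%. In DKO cells in serum/LIF, 12 of the 20 reads (60.0%, 36.1% to 80.9%) were Zscan4c. Intervals cover counting error only.

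**Figure D4:**
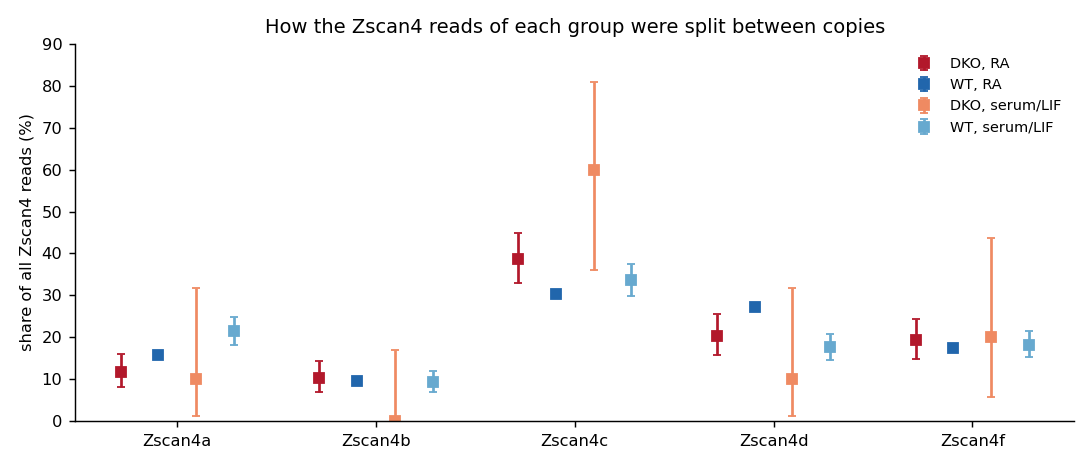
Share of the Zscan4 reads of each group that was assigned to each copy, pooled over 3 libraries, with exact binomial 95% intervals; those of WT cells after RA are narrower than the symbols. Zscan4d stands at 27.2% in WT cells after RA and at 20.3% in DKO cells after RA, and the 20 reads of DKO cells in serum/LIF leave wide intervals.

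Other genes of the two-cell state were lower in DKO cells along with Zscan4. Of 40 such genes listed from general knowledge, 29 were in the table and 26 passed the filter. In DKO against WT after RA, 25 were called lower, 0 higher and 1 in neither direction. Of all tested genes, 20.7% were called lower and 22% higher. The median of the 26 was -4.11 on the log2 scale, where all tested genes had 0.01. Without any one of the WT libraries after RA, 16 of the list were called, with fewer genes left by the filter. In serum/LIF, 17 were called lower, 0 higher and 9 in neither direction. There, 15.4% of all tested genes were called lower and 17.8% higher. The median of the 26 in serum/LIF was -2.27, where all tested genes had -0.01. Of the 26, 16 passed the filter only through the WT libraries after RA and had to differ, so these counts describe the list and test nothing. With 0 reads over the group stood 3 of the 29 in DKO cells after RA and 17 in DKO cells in serum/LIF.

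Tmem92, a gene whose RNA marks the two-cell state, averaged 18.6 ± 5.71 in DKO and 330 ± 24.8 in WT cells after RA, and 1.53 ± 1.33 in DKO and 44.8 ± 14.6 in WT cells in serum/LIF. Gm20767 averaged 16.8 ± 4.23 in DKO and 467 ± 65.3 in WT cells after RA, and was at 0 in DKO and 23.1 ± 16.8 in WT cells in serum/LIF. B020031M17Rik had 0 reads in both DKO groups, against 113 ± 15.6 in WT cells after RA and 5.94 ± 2.00 in WT cells in serum/LIF. Gm5662 averaged 11.7 ± 3.76 in DKO and 114 ± 8.36 in WT cells after RA, and 5.36 ± 1.32 in DKO and 40.9 ± 7.63 in WT cells in serum/LIF. These 4 genes were named for the smallest adjusted p in DKO against WT after RA, so their call after RA was fixed by the choice. B020031M17Rik also passed the filter only through the WT libraries after RA. In serum/LIF the 4 genes were called lower in DKO cells as well. With RA, 24 of the 26 were called higher in WT cells and 12 in DKO cells, where 41.4% and 40.2% of all tested genes were called higher. The 16 genes that passed the filter only through the WT libraries after RA had to be higher in WT cells with RA, so the first count too is a description. The genes Patl2 and Zfp959, named after their values were seen, were the 2 called lower with RA in each genotype.

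The genes whose pattern over the 12 libraries was closest to the Zscan4 sum were sought among 15042 tested genes. The measure was the root mean square (RMS) difference of log2(value + 1), centred on each gene's own mean. Genes named Gm with a digit, ending in Rik or starting with LOC were left out, among them Gm20767, so they were not ranked. The closest of those searched were Pramel31 at 0.67, Usp17lc at 0.74, Pramel24 at 0.79, Pramel19 at 0.88, Tmem92 at 0.89 and Pramel20 at 0.92, where the median gene was at 3.20. Usp17lc and Tmem92 are on the two-cell list, and the 4 Pramel genes, a multicopy family with leucine-rich repeats, lie on chromosome 4. The single Zscan4 copies were at 0.32 for Zscan4b, 0.34 for Zscan4f, 0.58 for Zscan4c, 0.69 for Zscan4d and 0.72 for Zscan4a. Pramel31 averaged 3.07 ± 1.07 in DKO and 204 ± 21.5 in WT cells after RA, and was at 0 in DKO and 12.2 ± 8.04 in WT cells in serum/LIF. Pramel and Usp17l genes have near-identical copies, so their reads too may be split uncertainly.

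**Figure D5:**
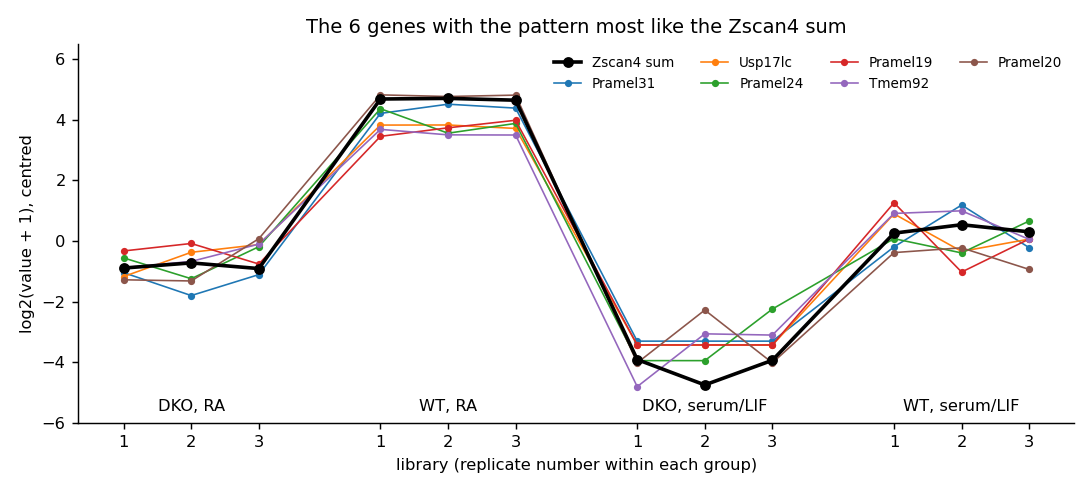
Log2(value + 1), centred on each gene's mean, in the 12 libraries for the Zscan4 sum and the 6 genes with the smallest RMS difference from it (0.67 to 0.92) among those searched. All 7 lines are highest in WT cells after RA and lowest in DKO cells in serum/LIF.

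Of the known activators of Zscan4, 5 were in the table, and Dux and Obox genes were not analysed here. Dppa2 and Dppa4, partner proteins that activate Dux and with it the two-cell genes, were at 5093 ± 169 in DKO and 5450 ± 76.5 in WT cells in serum/LIF for Dppa2 and at 6564 ± 148 in DKO and 6909 ± 220 in WT cells for Dppa4. Neither was called there. After RA, Dppa2 was at 829 ± 39.6 in DKO and 457 ± 27.1 in WT cells (log2 fold change 0.86, limma, adjusted p = 9.90e-12), and Dppa4 at 852 ± 48.4 in DKO and 1224 ± 63.4 in WT cells (-0.52, adjusted p = 1.46e-08). After RA, Dppa2 was thus higher and Dppa4 lower in DKO than in WT cells.

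Tbx3, a transcription factor of naive ES cells, was higher in DKO cells in serum/LIF, at 1358 ± 90.4 against 760 ± 36.9 in WT cells (log2 fold change 0.84, limma, adjusted p = 6.59e-10), and was not called after RA (0.16, adjusted p = 0.058), though it was without replicate 3 of WT after RA (0.041) or with only the groups compared in the fit (0.0435). Smarca5, a chromatin remodeller, was lower after RA, at 12757 in DKO and 16772 in WT cells (-0.39, limma, adjusted p = 1.09e-08). Its smaller difference in serum/LIF (-0.12, adjusted p = 0.0207) was lost without replicate 1 or 3 of DKO or replicate 1 of WT in serum/LIF (0.0773, 0.073 and 0.121). Nelfa, a subunit of the negative elongation factor, was called in neither medium, with -0.11 after RA (limma, adjusted p = 0.0631) and -0.11 in serum/LIF (0.0845). Its value after RA passed the threshold without replicate 2 of WT (0.0153) or replicate 3 of DKO after RA (0.0473) and with DESeq2 (0.0484).

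Known repressors of the two-cell state were called about as often as all genes. Of 31 tested, 7 were called higher, 5 lower and 19 not in DKO against WT after RA, where 22% of all tested genes were called higher and 20.7% lower. In serum/LIF 4 were called higher, 7 lower and 20 not, where 17.8% of all tested genes were called higher and 15.4% lower. Chaf1a, a subunit of chromatin assembly factor 1, averaged 5760 ± 44.9 in DKO and 9237 ± 175 in WT cells after RA, a log2 fold change of -0.68. Lin28a, an RNA-binding protein, was higher in DKO cells in both media, by 0.33 after RA and 0.42 in serum/LIF. Rif1, which binds telomeres and represses Zscan4, was higher in DKO cells after RA, at 6723 ± 199 against 5055 ± 557 in WT cells. Suv39h1, a histone H3K9 methyltransferase, was lower in DKO cells after RA (-0.27) and higher in serum/LIF (0.59).

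Genes of telomere upkeep and recombination, the processes ZSCAN4 is tied to, were called higher for 5, lower for 5 and not for 12 of 22 tested in DKO against WT after RA, and 1, 1 and 20 in serum/LIF. Of all tested genes, 42.7% were called in either direction after RA, close to the share of this list, and 33.2% in serum/LIF. The 3 shelterin or telomerase genes with the smallest adjusted p among the lower ones were Acd (-0.44), Wrap53 (-0.36) and Tinf2 (-0.31) on the log2 scale after RA. Among those called higher after RA were Rif1 (0.42), which is on this list too, Atrx (0.27), Dkc1 (0.21) and Pot1a (0.20). None of Acd, Wrap53 and Tinf2 was called in serum/LIF. Other SCAN-domain zinc finger genes, named Zscan or Zkscan, numbered 23 tested. After RA 2 were called higher, 6 lower and 15 not, and in serum/LIF 1 was called higher, 2 lower and 20 not, set against the same 42.7% and 33.2% of all tested genes. Zscan5b had 0 reads in DKO and 3.67 ± 1.70 in WT cells after RA, and 14.9 ± 1.01 in DKO and 205 ± 12.5 in WT cells in serum/LIF, so unlike the Zscan4 copies its level was lower after RA.

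Zscan10, an ES cell transcription factor, was higher in DKO cells after RA, at 373 ± 51.5 against 248 ± 12.2 in WT cells, and was not called in serum/LIF. Zkscan1 was lower in DKO cells after RA (-0.42) and Zkscan17 too (-0.18). Zkscan1 was called higher in serum/LIF (0.19, limma, adjusted p = 0.0188), a call lost without replicate 2 of DKO (0.12) or replicate 2 of WT in serum/LIF (0.0658), or with only the groups compared in the fit (0.0525).

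Of the other genes of the table, 2 lay within 1000000 bases of the cluster, and neither was called lower in DKO cells. Zik1, a zinc finger gene, averaged 847 ± 26.7 in DKO and 803 ± 45.5 in WT cells after RA, and 783 ± 35.8 in DKO and 858 ± 38.7 in WT cells in serum/LIF, and was not called in either medium. Gm45351 averaged 60.6 ± 12.6 in DKO and 26.0 ± 5.48 in WT cells after RA, and 20.7 ± 3.96 in DKO and 14.4 ± 6.49 in WT cells in serum/LIF. It was called higher in DKO cells after RA (log2 fold change 1.19 ± 0.38, limma, adjusted p = 0.014), a call lost without replicate 1 or 2 of DKO or replicate 3 of WT after RA (0.0506, 0.0639 and 0.0507).

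Some markers of other cell types differed with genotype. After RA, summed levels were 41317 to 43812 in DKO and 34214 to 36753 in WT cells for 7 fibroblast markers, 13151 to 13775 in DKO and 13078 to 13908 in WT cells for 6 trophoblast markers, and 2840 to 3065 in DKO and 2064 to 2313 in WT cells for 6 primitive endoderm markers. In serum/LIF they were 10247 to 11129 in DKO and 4291 to 4427 in WT cells for fibroblast, 2220 to 2735 in DKO and 782 to 819 in WT cells for trophoblast, and 425 to 451 in DKO and 220 to 312 in WT cells for primitive endoderm markers. The trophoblast sums after RA overlapped between genotypes and the other sums did not. Of the 7 fibroblast markers after RA, 3 were called higher and 4 not, with a median log2 fold change of -0.07. In serum/LIF 6 were called higher and 1 not. Of the 6 trophoblast markers, 2 were called higher, 1 lower and 3 not after RA, and 4 higher and 2 not in serum/LIF. Of the 6 primitive endoderm markers, 4 were called higher and 2 not after RA, and 3 higher and 3 not in serum/LIF. The sums are thus not shared by all markers of a list. None of these markers was at 0 reads in any group. All 9 ES cell markers were called higher in DKO cells after RA, and 5 of the 9 lower in serum/LIF. Among 8 markers of RA-treated cells, 1 was called higher and 3 lower after RA, and 2 higher and 3 lower in serum/LIF. As background for these marker counts, the shares over all tested genes were 22% higher and 20.7% lower after RA. In serum/LIF the shares were 17.8% higher and 15.4% lower. The marker lists were not tested against these shares. The part of these marker differences in the Zscan4 result was not tested.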

How the data were processed

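Per the labels' protocols and the series title, paired-end reads of total RNA were sequenced, although the labels' molecule and library source fields read genomic DNA and genomic; the values are treated as RNA. The submitters' processing notes give the build as mm10 and name DESeq2 (1.44.0), Subread (2.0.6) with its counter featureCounts, STAR (2.7.11b) and Trim Galore (0.6.10). Neither the notes nor the labels state how strand and multi-mapping reads were handled. The deposited library columns of the gene table hold a signal: 100% of values were whole reads, within 0.01 of a read, divided by a size factor, and their mean matched the authors' deposited mean of normalized counts. The repeat table, used for the rRNA share alone, is of the same kind. Per the file headers, the authors also deposited p-values, Wald statistics (a score) and log2 fold changes of 4 comparisons, of which the text quotes the log2 fold changes of the copies.

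Values were transformed as log2(value + 1), and genes needed a value of 10 in 3 or more libraries, which 15750 of 17901 had. Because the deposited values are normalized, limma 3.58.1 in R 4.3.3 (empirical Bayes, trend and robust) was used, with 1 mean per group over all 12 libraries, no block and Benjamini-Hochberg adjustment over all tested genes, and a call at an adjusted p under 0.05. For the sum, 1 row replaced the 5 copies. edgeR 4.0.16 and DESeq2 1.42.0 on the recovered reads were alternatives, as were other pseudocounts, filters and scalings and leaving out each library. Ratios of reads carry exact conditional Poisson 95% intervals, and shares exact binomial ones, which cover counting error alone, as there were no molecular identifiers to tell molecules from PCR copies. For 0 reads, 3 counts over the group were used.

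Members, lists and tests were chosen with earlier results of these data known, and the lists were written from general knowledge. Genes named are the copies, Rlf and Zfp292, listed activators, up to 4 called members per list with the smallest adjusted p in DKO against WT after RA, and the 6 nearest in pattern. The search for the 6 left out genes named Gm with a digit, ending in Rik or starting with LOC. Replicates differed by more than counting noise (chi-square per degree of freedom 3.25 to 14.4). Transcripts were compared from GENCODE, promoters from RefSeq on GRCm38.p6. Protein sequences were not used here.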

Additional observations from a re-analysis of the deposited data

Results flagged for a closer look

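For 16 of the named genes and sums, the genotype difference after RA differed from that in serum/LIF, by the limma interaction term at an adjusted p under 0.05. Of all tested genes, 30.8% were called for this term. Many of the named genes were chosen by their adjusted p in DKO against WT after RA, which enters the term, so the count is a description. Values are log2 fold changes of DKO against WT after RA minus those in serum/LIF. A negative one means a larger loss, a smaller gain, or a gain turned to a loss, in DKO cells after RA.

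The Zscan4 sum was at -0.96. Among two-cell genes and genes of like pattern, B020031M17Rik was at -4.07, Pramel20 at -2.72 and Pramel31 at -2.13. B020031M17Rik had 0 reads in both DKO groups, so its value reflects the WT levels and the added 1 alone, and Pramel31 had 0 reads in DKO cells in serum/LIF and lost its call without any 1 of the WT libraries after RA, among other alternatives. With edgeR neither B020031M17Rik nor Pramel20 (adjusted p = 0.347) was called. Of the activators, Dppa2 was at 0.96, Dppa4 at -0.45, Tbx3 at -0.67 and Smarca5 at -0.28. Repressors were at -0.85 for Suv39h1, -0.53 for Chaf1a and 0.33 for Rif1. Telomere genes were at -0.43 for Wrap53, -0.35 for Acd and -0.23 for Tinf2, whose call was lost without replicate 2 of DKO after RA (limma, adjusted p = 0.0561). The SCAN-domain relatives Zkscan1 and Zscan10 were at -0.61 and 0.50.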

How the results depend on the processing

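For the Zscan4 sum, the 4 pairwise log2 differences kept their direction and call under all 21 alternatives, with ranges of -5.58 to -5.46 for DKO against WT after RA, -4.71 to -4.02 in serum/LIF, 4.26 to 4.40 for RA in WT and 2.85 to 3.50 for RA in DKO. All 5 copies stayed called in these comparisons under each alternative. The interaction of the sum ran from -1.44 to -0.81 and lost its call with edgeR alone (-0.88, adjusted p = 0.0633). Leaving out single libraries gave -1.23 to -0.81 for it. Copies called for the interaction numbered 0 by limma, 5 with 5 added before the logarithm in place of 1, 1 with DESeq2, and 0 to 2 when single libraries were left out. Zscan4b and Pramel31 had 0 reads in DKO cells in serum/LIF, and the interaction of Zscan4b was 1.78 with edgeR and 0.98 with DESeq2, and that of Pramel31 was 0.61 with edgeR, against negative values from limma; the cause was not tested. Acd in serum/LIF, not called, ran from -0.14 to 0.0032 as single libraries were left out, highest without DKO replicate 2. Counts of called genes stayed within 1.5 times under all alternatives.

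Same-numbered libraries of different groups did not deviate together (r -0.03 to 0.05 over 18 pairs, and -0.03 to 0.03 between other libraries), so the numbers do not pair the samples. The replicate block left the sum at -5.52 after RA, -4.57 in serum/LIF, 4.31 and 3.36 for RA, and -0.96 for the interaction (adjusted p = 0.0103). It changed no call of a copy, but ended that of Pramel31 in the interaction (adjusted p = 0.0503). Of the list counts, 31 of 520 moved by over 1.5 times, among them the two-cell count for the interaction, 10 by limma, 2 with edgeR and 19 with 5 added. Depth limits DKO cells in serum/LIF, where 20 reads carry the sum.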
